A study of Homo sapiens with 12 samples.

Results

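MALAT1, NEAT1 and KCNQ1OT1 are long noncoding RNAs that stay in the nucleus. They are 3 of 33694 human gene identifiers, taken by symbol and selected on their counts and shares of gene counts in these same libraries. Their own levels and fitted changes are therefore a description, and nothing is read from how many of the 3 pass the threshold of the fit, a number given beside the share of all genes that do. All 3 have counts in every library and passed the filter on low counts.

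MALAT1 gathers in nuclear speckles, bodies rich in splicing factors, and its end is not made by polyadenylation: a cut by RNase P leaves an end that folds into a triple helix. NEAT1 is the scaffold of paraspeckles. Its long form ends in the same way as MALAT1, while its short form, from the same start, is polyadenylated. KCNQ1OT1 is an unspliced RNA made from within the KCNQ1 gene on the opposite strand, and is known for silencing neighbouring genes in cis on the paternal chromosome.

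The RNA came from A375, an established human melanoma line that carries a mutant, active BRAF, and from A375-BIR, a line named in the labels for its resistance to BRAF inhibitors. The 4 groups were A375-BIR with dabrafenib, A375-BIR with DMSO, A375 with dabrafenib and A375 with DMSO. Dabrafenib, a BRAF kinase inhibitor, was given at 200 nM and DMSO at 0.1%, both for 48 h and in 10% serum. No DMSO percentage is listed for the dabrafenib libraries. The labels do not say how the resistant line was made or whether it is a clone. Tags from the 3′ ends of transcripts (QuantSeq FWD) were counted per gene, with 3 libraries in each of the first 3 groups and 1 of A375 with DMSO.

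The files of A375 DMSO replicates 2 and 3 list mouse identifiers and were left out, so that no spread can be estimated in that group. The count file of its remaining library carries a date stamp that differs from the date shared by the other 9, as do those of replicates 2 and 3. The labels do not say what the stamp marks, and the word run below means only a shared stamp. Wherever A375 DMSO is compared, group and run thus cannot be told apart. Gene counts ranged from 198690 to 1999840 per library. Reads on genes took 20.4% to 31.1% of all lines of a file over the 9 libraries that share a run, against 27.1% in A375 DMSO. Among the markers, the melanocytic list had 207 to 321 summed CPM (read counts scaled to a common library total) in A375-BIR, 2537 to 3318 in A375 with dabrafenib and 1148 in A375 with DMSO, although MLANA had 1 count in all. The dedifferentiated list had 735 to 891 in A375-BIR, 262 to 278 in A375 with dabrafenib and 65.01 in A375 with DMSO. Its members did not go the same way. NGFR had 2.56 to 10.4 CPM in A375-BIR, 257 to 261 in A375 with dabrafenib and 40 in A375 with DMSO. AXL, EGFR and NT5E had at most 12.2 CPM each in any A375 library, so the sum in A375 with dabrafenib was nearly all NGFR. The epithelial list had 207 to 339, 10.1 to 21.6 and 78.5 in the same order, nearly all from KRT8 and KRT18, with EPCAM and KRT19 at 0 counts. Leukocyte and erythroid markers had 5 counts over all libraries.

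Because MALAT1 and the long form of NEAT1 lack a poly(A) tail, the sequences that stand at their ends are shown first, from the GENCODE 29 transcripts (GRCh38). The capitals mark a U-rich stretch of 16 bases found in both and the A-rich motif AAAAAGCAAAA, the longest stretch at the very end of NEAT1-202 that is also in MALAT1-202; both lie in the tracts that pair in the triple helix. The MALAT1 window lies at chr11:65506057-65506116 on the plus strand and ends 353 bases before the annotated end of MALAT1-202, while the NEAT1 window, at chr11:65445481-65445540 on the plus strand, is the very end of NEAT1-202.
MALAT1 end tract: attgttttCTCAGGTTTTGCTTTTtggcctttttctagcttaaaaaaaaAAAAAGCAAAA
NEAT1 long form end: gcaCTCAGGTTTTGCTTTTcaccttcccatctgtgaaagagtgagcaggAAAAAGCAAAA
The U-rich stretch was in 2 of 206694 annotated transcripts on the sense strand, those 2 RNAs, and in 1 on the antisense strand. The motif AAAAAGCAAAA was in 0.437% of all transcripts on the sense strand and 0.450% on the antisense strand, and in 0.0383% of the last 60 bases of transcripts. MALAT1-202 held it 2 times on the sense strand and 1 time on the antisense strand, where the match overlaps the U-rich stretch. NEAT1-202 and KCNQ1OT1-201 held it 1 time each on the sense strand.

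An oligo(dT) primer can also pair with runs of A inside a transcript, so the longest such runs of NEAT1 and KCNQ1OT1 are shown, with the run in capitals. They lie at chr11:65440824-65440883 on the plus strand and at chr11:2610702-2610761 on the minus strand (GRCh38).
NEAT1 longest A-run: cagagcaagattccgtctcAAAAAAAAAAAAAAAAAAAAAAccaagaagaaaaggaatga
KCNQ1OT1 longest A-run: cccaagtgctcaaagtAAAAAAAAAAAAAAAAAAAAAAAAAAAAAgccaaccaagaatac
Runs of at least 10 A numbered 1 in MALAT1-202 with a longest of 13, 5 in NEAT1-202 with a longest of 22 and 17 in KCNQ1OT1-201 with a longest of 29. That is 0.115, 0.220 and 0.185 runs per kb, against 0.0563 per kb over all annotated transcripts. The files give counts per gene and not where in a gene the reads lay, so which of these sites gave the tags was not tested.

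MALAT1 (ENSG00000251562) is annotated as a lincRNA at chr11:65497688-65506516 on the plus strand. Its share of gene counts was 2.36%, 3.94% and 5.78% in A375-BIR with dabrafenib, 2.54%, 3.18% and 2.79% in A375-BIR with DMSO, 5.08%, 5.68% and 8.60% in A375 with dabrafenib, and 2.60% in A375 with DMSO (95% Wilson interval 2.57% to 2.62%, counting error only). It had more reads than any other gene in 9 of 10 libraries and ranked 2 in A375 DMSO. The A375 dabrafenib libraries were higher than both DMSO groups in every library, and the A375-BIR dabrafenib libraries spread across the range of the other groups.

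In CPM, on totals scaled by the trimmed mean of M-values (TMM), MALAT1 averaged 38988 ± 18061 in A375-BIR with dabrafenib, 26636 ± 3195 in A375-BIR with DMSO and 67756 ± 23599 in A375 with dabrafenib (SD, n = 3 each), and was 32051 in A375 with DMSO. The highest A375-BIR dabrafenib library had 2.68 times the level of the lowest, against 1.27 times among the A375-BIR DMSO libraries. Ordered by mean, A375 with dabrafenib stood first, then A375-BIR with dabrafenib, A375 with DMSO and A375-BIR with DMSO. The first 2 overlapped, and the A375 DMSO library lay within the range of A375-BIR with dabrafenib and above the highest A375-BIR DMSO library.

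NEAT1 (ENSG00000245532), a lincRNA at chr11:65422774-65445540 on the plus strand, lies 52147 bases upstream of MALAT1. It took 0.758%, 0.905% and 0.988% of gene counts in A375-BIR with dabrafenib, 0.790%, 0.848% and 0.795% in A375-BIR with DMSO, 1.93%, 2.00% and 2.40% in A375 with dabrafenib, and 1.55% in A375 with DMSO (95% Wilson interval 1.53% to 1.57%). Every A375 library was above every A375-BIR library, with or without dabrafenib. In CPM the means were 8491 ± 1488, 7615 ± 343 and 22007 ± 3882 (SD, n = 3 each) in A375-BIR with dabrafenib, A375-BIR with DMSO and A375 with dabrafenib, and the A375 DMSO library had 19157. The A375-BIR groups overlapped, and the A375 DMSO library was just below the lowest A375 dabrafenib library, which had 19279 CPM. The counts are per gene, so the short and the long form of NEAT1 cannot be told apart.

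KCNQ1OT1 (ENSG00000269821) is annotated as antisense at chr11:2608328-2699994 on the minus strand, within KCNQ1. It took 0.0496%, 0.0620% and 0.104% of gene counts in A375-BIR with dabrafenib, 0.0717%, 0.0830% and 0.0659% in A375-BIR with DMSO, 0.139%, 0.133% and 0.177% in A375 with dabrafenib, and 0.0555% in A375 with DMSO (95% Wilson interval 0.0523% to 0.0589%). The 3 A375 dabrafenib libraries were above every other library. The A375-BIR groups overlapped, and the A375 DMSO library lay within the range of A375-BIR with dabrafenib and below every A375-BIR DMSO library. The CPM means were 694 ± 301, 690 ± 75.5 and 1564 ± 332 (SD, n = 3 each) in A375-BIR with dabrafenib, A375-BIR with DMSO and A375 with dabrafenib, and the A375 DMSO library had 685. KCNQ1, the potassium channel gene that contains it, had 0 counts in all 10 libraries. The strand setting of the counting is not given in the sources used here, so reads of a gene and of an antisense partner cannot be told apart.

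**Figure D1:**
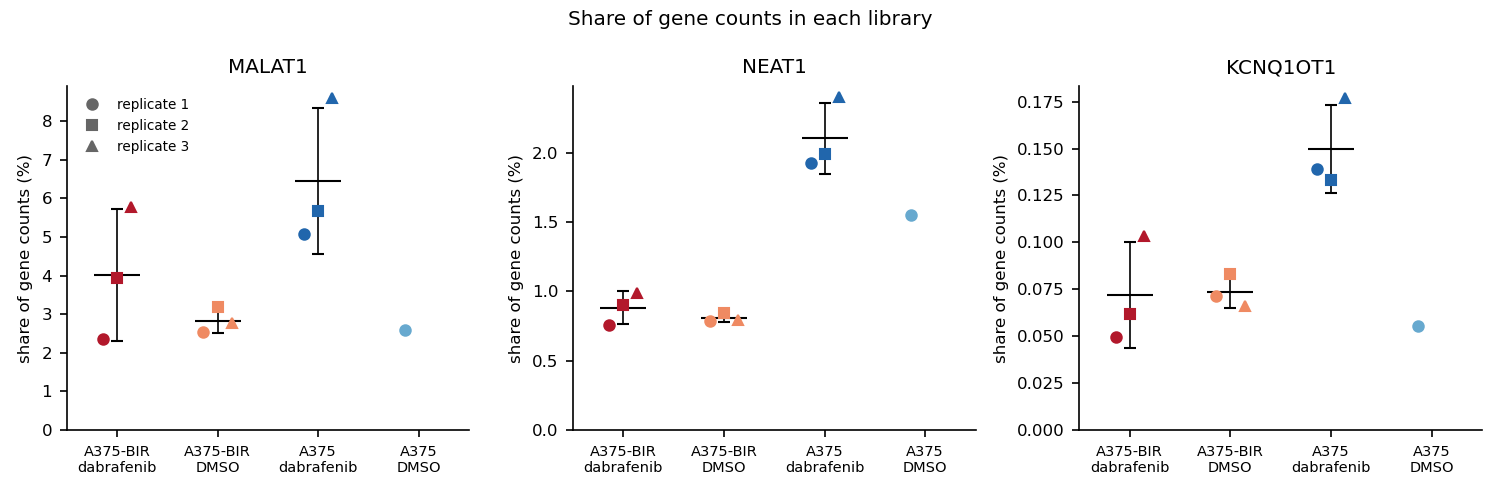
Share of gene counts (percent, y axis) of MALAT1, NEAT1 and KCNQ1OT1 in each library of the 4 groups (x axis); point shapes give the replicate, and bars give the mean ± SD of groups with 3 libraries. The A375 dabrafenib libraries lie above the other groups for NEAT1 and KCNQ1OT1, while the third A375-BIR dabrafenib library, at 5.78%, lies within their MALAT1 range.

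The question of the response to dabrafenib in A375-BIR was addressed within the shared run. The fitted log2 change of A375-BIR with dabrafenib over A375-BIR with DMSO was 0.55 ± 0.30 for MALAT1, 0.16 ± 0.23 for NEAT1 and -0.01 ± 0.22 for KCNQ1OT1 (standard errors from edgeR's quasi-likelihood fit). The groups overlapped for each RNA, and 0 of 3 were called at an adjusted p under 0.05, against 2.46% of the 10236 genes tested. In these groups 18% of all genes tested did not overlap. Without A375-BIR dabrafenib replicate 3 the MALAT1 value was 0.16, without replicate 1 it was 0.84, and KCNQ1OT1 was at -0.40 and 0.23 in the same fits. With the share of reads with more than 1 alignment as a term, MALAT1 was at -0.04, NEAT1 at -0.06 and KCNQ1OT1 at -0.58, the last being past the threshold in that fit.

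In A375, dabrafenib was set against the single DMSO library. The fitted log2 changes were 1.08 ± 0.45 for MALAT1, 0.20 ± 0.32 for NEAT1 and 1.18 ± 0.32 for KCNQ1OT1, and the 3 dabrafenib libraries were above the DMSO library for each RNA. KCNQ1OT1 was called (1 of 3), against 38.6% of all genes tested, and 71.9% of all genes tested did not overlap between these groups. MALAT1 ranged from 0.76, without A375 dabrafenib replicate 3, to 1.25, without replicate 1, when each library was left out in turn. It was at 0.60 with a replicate block, at 1.31 with library totals in place of TMM and at 1.72 with the share of multiply aligned reads as a term. It lay close to the threshold, and passed it in 7 of 19 other settings of the fit.

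With dabrafenib, A375-BIR was below A375 for all 3 RNAs. The fitted log2 change of A375-BIR over A375 was -0.80 ± 0.30 for MALAT1, -1.37 ± 0.23 for NEAT1 and -1.18 ± 0.22 for KCNQ1OT1. NEAT1 and KCNQ1OT1 did not overlap between the lines, which held for 48.2% of all genes tested, and MALAT1 did, since the third A375-BIR library, at 57521 CPM, was above the lowest A375 library, at 50793. All 3 were called lower, against 42.7% of all genes tested called in either direction and 20.2% called lower. MALAT1 was at -0.50 without A375-BIR replicate 1, at -0.48 without A375 replicate 3, at -1.20 without A375-BIR replicate 3 and at -0.41 with the share of multiply aligned reads as a term. It was short of the threshold in the first, second and last of these, and also without A375-BIR replicate 2 (-0.78), in DESeq2 (-0.79) and in a fit restricted to the groups compared (-0.82). NEAT1 ranged from -1.499 to -1.23 and KCNQ1OT1 from -1.57 to -0.94 when each library was left out in turn.

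In DMSO, the fitted log2 change of A375-BIR over the lone A375 library was -0.27 ± 0.42 for MALAT1, -1.33 ± 0.30 for NEAT1 and 0.01 ± 0.30 for KCNQ1OT1. NEAT1 was called (1 of 3), against 51.7% of all genes tested, and 84.4% of all genes tested did not overlap. With library totals in place of TMM, the median change of all genes moved to 0.40, and the 3 RNAs were at 0.13, -0.94 and 0.41. With the share of multiply aligned reads as a term, MALAT1 was at 1.35, NEAT1 at -0.70 and KCNQ1OT1 at 1.57. In that fit MALAT1 and KCNQ1OT1 passed the threshold as higher in A375-BIR and NEAT1 no longer passed it. The sign of the MALAT1 change between the lines in DMSO thus turned with 2 of the settings. With library totals, however, MALAT1 stayed below the median of all genes, as it did with TMM. Multiply aligned reads took 52.5% of all lines in the A375 DMSO library, against 40.0% to 49.4% in the other libraries. The term for them is estimated within the other groups, so it was extended past their range for that library.

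The difference between the responses, that of A375-BIR minus that of A375, was -0.53 ± 0.53 for MALAT1, -0.04 ± 0.39 for NEAT1 and -1.19 ± 0.38 for KCNQ1OT1 on the log2 scale. KCNQ1OT1 was called (1 of 3), against 22.6% of all genes tested. It was short of the threshold without A375-BIR dabrafenib replicate 2 (-1.12), A375-BIR DMSO replicate 2 (-1.10) or A375 dabrafenib replicate 3 (-1.02). MALAT1 was at -0.22 without A375 dabrafenib replicate 3, at -0.24 without A375-BIR dabrafenib replicate 1 and at -0.92 without A375-BIR dabrafenib replicate 3. With the share of multiply aligned reads as a term, MALAT1 was at -1.76, NEAT1 at -0.51 and KCNQ1OT1 at -2.41, and MALAT1 passed the threshold as well. The 5 comparisons share groups, so their values do not stand as separate results.

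**Figure D2:**
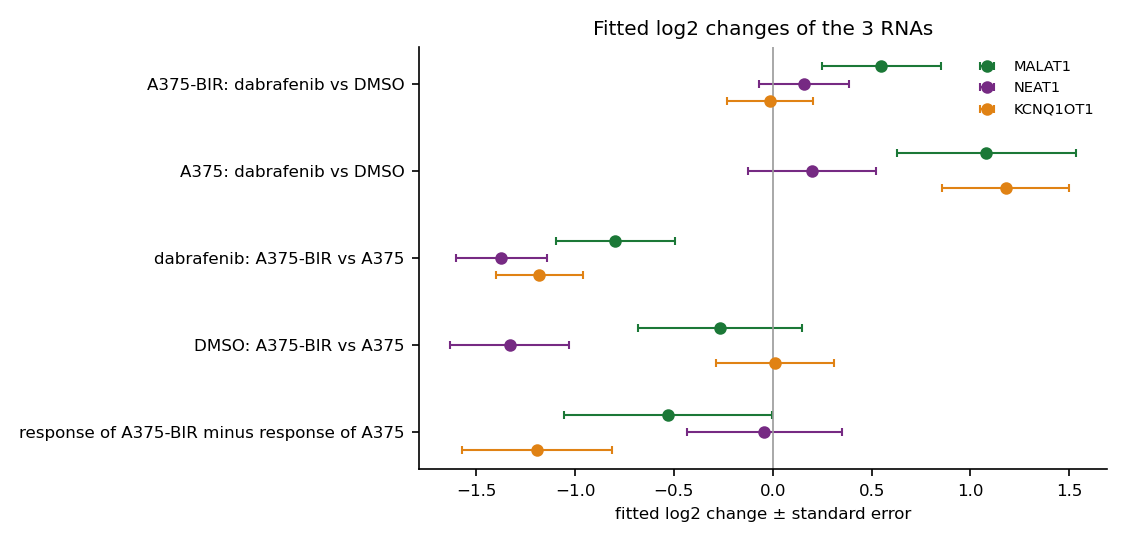
Fitted log2 change with its standard error (x axis) of MALAT1, NEAT1 and KCNQ1OT1 in the 5 comparisons (y axis), A375-BIR or dabrafenib being on top of each change. NEAT1 is near -1.3 to -1.4 between the lines in both conditions and near 0 in both responses, while KCNQ1OT1 is at 1.18 in the A375 response and at -0.01 in that of A375-BIR.

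The same libraries were then compared with reads given to no gene, which the counts leave out. Reads with more than 1 alignment took 42.3%, 41.3% and 49.4% of all lines in A375-BIR with dabrafenib, 40.2%, 41.0% and 40.0% in A375-BIR with DMSO, 46.0%, 47.2% and 49.2% in A375 with dabrafenib, and 52.5% in A375 with DMSO. Reads outside annotated genes took 29.6%, 29.7% and 30.0%, then 29.9%, 30.9% and 28.6%, then 29.5%, 29.2% and 29.6%, and 20.1% in the same groups. Within each dabrafenib group, the library with the highest MALAT1 share was the one with the highest share of multiply aligned reads and the lowest share on genes, 20.4% in A375-BIR and 21.1% in A375. It also had the fewest gene counts of its group, 391210 in A375-BIR and 198690 in A375. In A375-BIR with dabrafenib, gene counts were 971347, 560878 and 391210, while MALAT1 had 22899, 22089 and 22601 reads. Whether depth has a part in the spread of MALAT1 was not tested. Over the shared run, the highest share of all lines outside annotated genes was 1.08 times the lowest. That of multiply aligned reads was 1.24 times, and that of MALAT1 in gene counts 3.65 times. Among reads with 1 alignment, the share outside annotated genes ran from 47.6% to 59.2%, or 1.25 times. It too was highest in the library with the highest MALAT1 share of each dabrafenib group, at 59.2% in A375-BIR and 58.2% in A375. The A375 DMSO library had the most multiply aligned reads and the third lowest MALAT1 share.

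**Figure D3:**
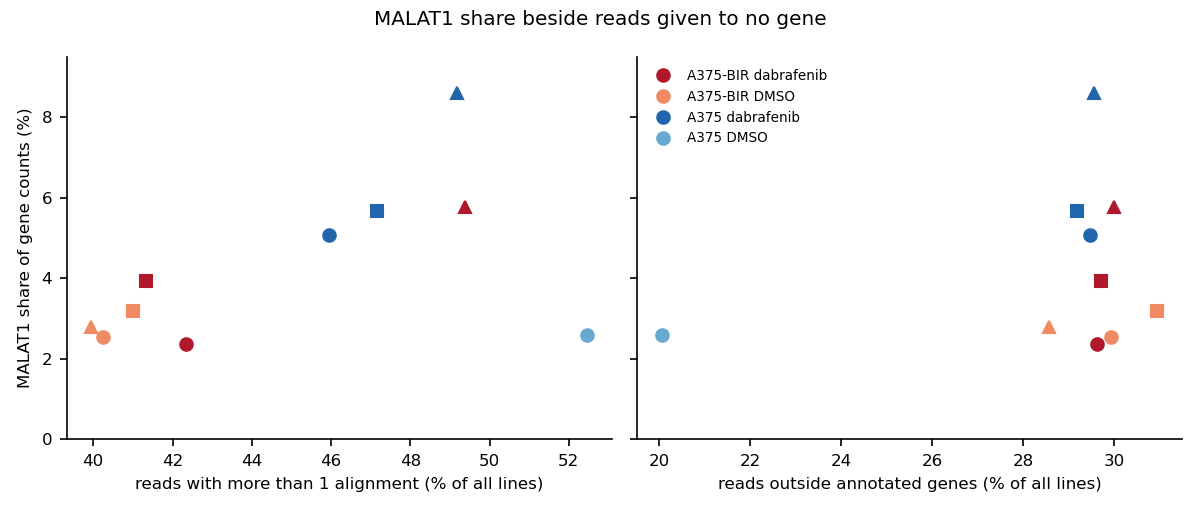
MALAT1 share of gene counts (percent, y axis) against the share of all lines taken by reads with more than 1 alignment (left) and by reads outside annotated genes (right), 1 point per library with color for the group and shape for the replicate. The 9 libraries of the shared run spread along the left axis from 40.0% to 49.4% and bunch on the right between 28.6% and 30.9%; the A375 DMSO library stands apart on both.

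Counted against all lines instead of gene counts, the spread of MALAT1 was narrower. MALAT1 took 0.653%, 1.13% and 1.18% of all lines in A375-BIR with dabrafenib, 0.750%, 0.882% and 0.867% in A375-BIR with DMSO, 1.23%, 1.33% and 1.81% in A375 with dabrafenib, and 0.704% in A375 with DMSO. On this scale the dabrafenib libraries of the 2 lines did not overlap for MALAT1, the nearest being at 1.18% and 1.23%, whereas in CPM they overlapped. In CPM, 48.2% of all genes tested did not overlap between these groups, and that share was not counted on the scale of all lines. NEAT1 took 0.210%, 0.259% and 0.202% in A375-BIR with dabrafenib, against 0.233%, 0.235% and 0.247% in A375-BIR with DMSO. It took 0.469%, 0.467% and 0.506% in A375 with dabrafenib, against 0.421% in A375 with DMSO. The mean for NEAT1 in A375-BIR was thus lower with dabrafenib than with DMSO on this scale and higher as a share of gene counts, in overlapping groups both times.

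The other RNA classes did not spread alike. The other 7231 lincRNA identifiers, summed, took 0.877%, 0.851% and 0.889% of gene counts in A375-BIR with dabrafenib, 0.882%, 0.853% and 0.854% in A375-BIR with DMSO, 0.850%, 0.841% and 0.845% in A375 with dabrafenib, and 0.682% in A375 with DMSO. Over the shared run, their highest share was 1.06 times their lowest, against 3.17 times for NEAT1 and 3.56 times for KCNQ1OT1. MALAT1 alone held 59.1% to 75.5% of all lincRNA counts in A375-BIR with dabrafenib, 60.3% to 65.1% in A375-BIR with DMSO, 64.6% to 72.6% in A375 with dabrafenib and 53.8% in A375 with DMSO. The 13 mitochondrially encoded genes took 5.17%, 4.88% and 7.21%, then 4.63%, 5.49% and 5.33%, then 10.7%, 11.01% and 15.1%, and 15.1% in the same order of groups. They were highest in the same library of each dabrafenib group as MALAT1. Ribosomal protein genes took 7.03%, 8.62% and 5.55%, then 7.19%, 6.63% and 8.002%, then 4.39%, 4.25% and 3.25%, and 7.67%, and were lowest in those libraries. What part these shares have in the levels of the 3 RNAs was not tested, and in bulk RNA a change per cell and a change in the mix of cells cannot be told apart.

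**Figure D4:**
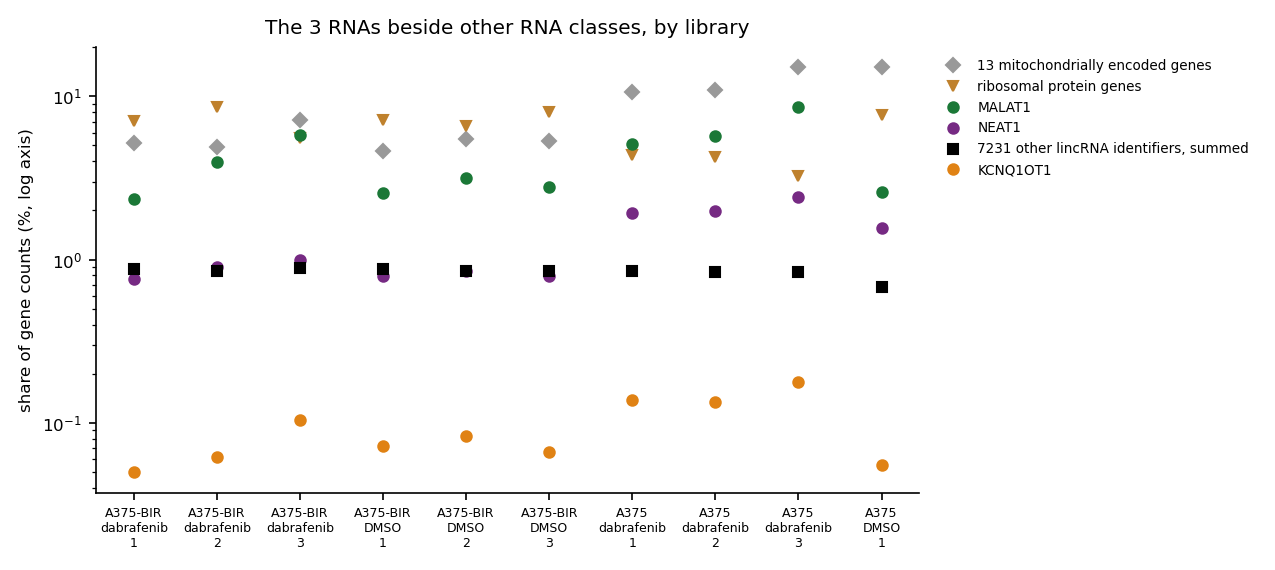
Share of gene counts (percent, log y axis) of MALAT1, NEAT1, KCNQ1OT1, the other lincRNA identifiers summed, mitochondrially encoded genes and ribosomal protein genes in the 10 libraries (x axis, by group and replicate). The summed lincRNAs stay between 0.841% and 0.889% in the 9 libraries of the shared run, while MALAT1 runs between 2.36% and 8.60%.

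The RNAs were also set against each other within each library, which no scaling of totals can change. MALAT1 had 3.11, 4.35 and 5.84 reads per NEAT1 read in A375-BIR with dabrafenib, 3.22, 3.75 and 3.503 in A375-BIR with DMSO, 2.63, 2.85 and 3.58 in A375 with dabrafenib, and 1.67 in A375 with DMSO. The A375 DMSO library was below all others, and the other 3 groups overlapped. KCNQ1OT1 had 6.54, 6.85 and 10.5 reads per 100 NEAT1 reads in A375-BIR with dabrafenib, 9.07, 9.79 and 8.29 in A375-BIR with DMSO, 7.20, 6.68 and 7.36 in A375 with dabrafenib, and 3.58 in A375 with DMSO. These are ratios of 3′ tags and not of molecules, since priming may differ between the RNAs.

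**Figure D5:**
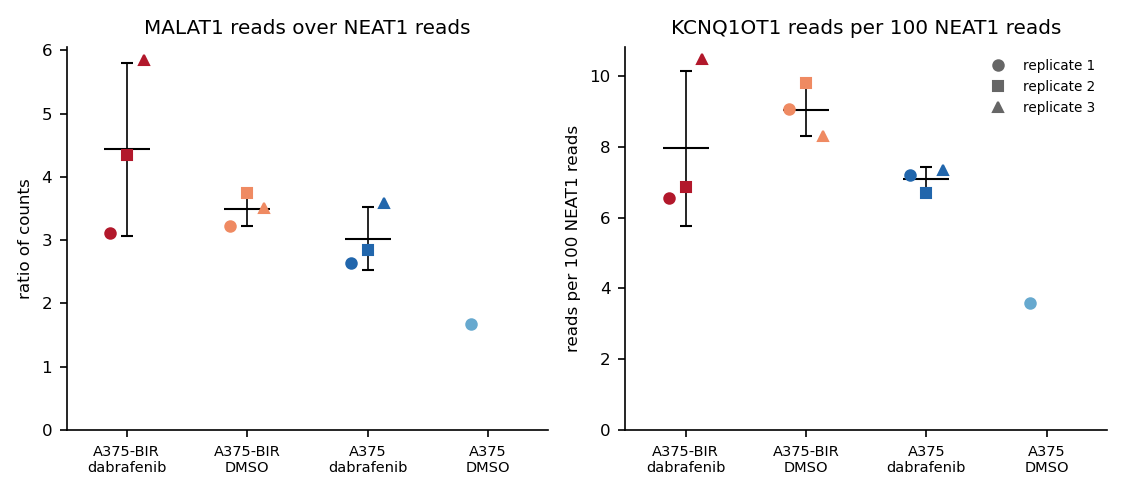
Reads of MALAT1 per read of NEAT1 (left) and reads of KCNQ1OT1 per 100 reads of NEAT1 (right) in each library (y axes) of the 4 groups (x axes), with mean ± SD where a group has 3 libraries. The A375 DMSO library is lowest in both, at 1.67 and 3.58, and the A375-BIR dabrafenib libraries spread the most.

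The genes most like each RNA were taken among 4182 genes with a mean of at least 50 CPM, by Pearson's r of log2 CPM. Over 10 libraries the closest to MALAT1 were MT-ND1 (r = 0.98), RBM6 (0.98), ZNF655 (0.96), MTRNR2L1 (0.95) and CDK11A (0.94). For NEAT1 they were MT-CO1 (0.99), SPAG9 (0.99), MT-CYB (0.98), PDK4 (0.98) and ZC3H13 (0.98), and for KCNQ1OT1 MTRNR2L1 (0.97), LUC7L (0.96), ARHGEF10 (0.96), XIST (0.95) and SRSF4 (0.95). MALAT1 and KCNQ1OT1 had an r of 0.92, MALAT1 and NEAT1 0.79, and NEAT1 and KCNQ1OT1 0.82. The points share their library, its depth and its scaling, and the groups differ in level, so these are descriptions.

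Within groups, deviations from the group mean were compared over the 9 libraries of the shared run. The genes closest to MALAT1 were XIST (r = 0.98), NEAT1 (0.98), FIP1L1 (0.98), MT-ND1 (0.98) and MT-CO1 (0.98). For NEAT1 they were ZNF655 (0.99), TPP2 (0.99), WASF2 (0.99), MALAT1 (0.98) and MT-ND1 (0.98), and for KCNQ1OT1 GADD45A (0.99), NKTR (0.99), RBM25 (0.99), FIP1L1 (0.99) and GOLGA4 (0.98). MALAT1 and KCNQ1OT1 had an r of 0.94 and NEAT1 and KCNQ1OT1 an r of 0.89. The median r over all 4182 genes was -0.04 for MALAT1, -0.05 for NEAT1 and -0.03 for KCNQ1OT1.

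The proteins that NEAT1 and MALAT1 work with were described from lists chosen with earlier results known. In A375-BIR, 1 of 23 paraspeckle proteins was lower with dabrafenib: FAM98A, at 94.6 ± 6.59 CPM with dabrafenib and 149 ± 21.7 with DMSO (log2 change -0.67 ± 0.18, edgeR adjusted p 0.0345). DESeq2 (-0.65), a fit restricted to the groups compared (-0.66) and one with the share of multiply aligned reads as a term (-0.67) did not call it. It was also lost without A375-BIR dabrafenib replicate 1 (-0.61), A375-BIR DMSO replicates 1 (-0.59) or 3 (-0.61) and A375 dabrafenib replicates 1 or 2 (-0.67 each), and the list had 2 calls without A375-BIR dabrafenib replicate 2. The median over the list was 0.01, beside 0.02 over all genes tested. Of 22 nuclear speckle proteins 0 were called, or 1 without A375-BIR dabrafenib replicate 1, with a median of 0.10. Both lists stand beside 2.46% of all genes tested called for dabrafenib in A375-BIR.

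Between the lines with dabrafenib, 6 of 23 paraspeckle proteins were higher in A375-BIR, 2 were lower and 15 were not called, against 42.7% of all genes tested called in either direction, with a median of 0.32 beside 0.04 over all genes tested. Without A375 replicate 3, 5 were called in all. HNRNPA1, an RNA-binding protein needed for paraspeckles, had 456 ± 45.7 CPM in A375-BIR and 153 ± 4.34 in A375 (log2 change 1.58 ± 0.18, edgeR adjusted p 4.69e-09). HNRNPUL1 was also higher (0.92 ± 0.20). CIRBP, a cold-inducible RNA-binding protein, was lower (-1.15 ± 0.21), as was FAM98A (-1.30 ± 0.19). NONO and SFPQ, the core pair that binds NEAT1, had fitted changes of 0.46 and 0.46, of which that of NONO was called (edgeR adjusted p 0.0289) and that of SFPQ was not (0.0908). Those 2 were picked after their values were seen, for their role.

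Of the nuclear speckle proteins, 3 of 22 were higher in A375-BIR with dabrafenib than in A375 with dabrafenib, 2 were lower and 17 were not called (median -0.04), again beside 42.7% of all genes. The higher ones were the splicing factors SRSF3 (1.11 ± 0.22), SRSF7 (1.003 ± 0.20) and SRSF5 (0.66 ± 0.18). PRPF4B, a kinase of the spliceosome, was lower, at 351 ± 74.5 CPM in A375-BIR and 715 ± 86.7 in A375 (log2 change -1.04 ± 0.18, edgeR adjusted p 1.2e-05). The list had 12 calls without A375-BIR dabrafenib replicate 3. Among 16 genes for the cut and the binding of the triple helix end (RNase P subunits, ELAC2, METTL16 and others), 1 was called, the RNase P subunit RPP30 (1.09 ± 0.37), which was lost in DESeq2 (1.13) and without A375 replicate 1 (0.70), while the list had 2 calls without A375-BIR replicates 1 or 2 or A375 replicate 3.

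The KCNQ1 imprinted cluster on chromosome 11 holds genes that KCNQ1OT1 is known to silence in cis, though not every listed gene need be among them. Whether KCNQ1OT1 has a part in their levels here was not tested. Of 13 listed genes, 8 were tested. In A375-BIR, 0 of 8 were called with dabrafenib (median -0.46), or 1 without A375-BIR dabrafenib replicates 1 or 2, beside 2.46% of all genes tested. In A375, 5 of 8 were lower with dabrafenib than in the DMSO library and 0 were higher, against 38.6% of all genes tested called in either direction, with a median of -1.49 beside 0.00 over all genes tested. PHLDA2, an imprinted gene that limits placental growth in mice, had 19.1 ± 7.90 CPM in A375 with dabrafenib and 245 in A375 with DMSO (log2 change -3.84 ± 0.32, edgeR adjusted p 1.66e-11). SLC22A18, a membrane transporter, had 47.9 ± 4.29 and 143 CPM in the same groups (-1.55 ± 0.28), and CD81, a tetraspanin, 55.1 ± 28.6 and 237 (-1.93 ± 0.36). NAP1L4, a histone chaperone, was at -1.44 ± 0.24. CDKN1C, the cell-cycle inhibitor of the cluster, had 65 counts in all and was not called (-0.20).

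Between the lines with dabrafenib, 3 of the 8 tested cluster genes were higher in A375-BIR and 2 were lower (median -0.05), beside 42.7% of all genes, with 3 calls in all without A375 replicate 1 or replicate 2. PHLDA2 was higher, at 63.9 ± 9.64 CPM in A375-BIR and 19.1 ± 7.90 in A375 (1.87 ± 0.35), and SLC22A18 was lower, at 13.2 ± 6.72 and 47.9 ± 4.29 (-1.86 ± 0.35). Both were below A375 in DMSO, at -1.37 ± 0.23 and -3.41 ± 0.29; with the share of multiply aligned reads as a term the call of PHLDA2 there was lost (-1.38). For PHLDA2 the sign thus differed between the conditions, and the difference between responses was 3.24 on the log2 scale. Of the 9 repressors tied to KCNQ1OT1 (Polycomb subunits, the histone methyltransferases EHMT1 and EHMT2, and DNMT1), 0 were called for dabrafenib in A375-BIR (1 without A375-BIR dabrafenib replicate 2), beside 2.46% of all genes. In A375 3 were higher with dabrafenib than in the DMSO library and 2 were lower, beside 38.6% of all genes (3 calls in all without A375 dabrafenib replicate 1). With the share of multiply aligned reads as a term the calls of DNMT1, RNF2 and EED in A375 were lost (-0.58, 1.10 and 1.15).

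Genes known for retaining introns in nuclear transcripts were included because such transcripts also stay in the nucleus. In A375, 8 of 14 were higher with dabrafenib than in the DMSO library and 0 were lower, beside 38.6% of all genes called in either direction, with a median of 0.74; 5 were called without A375-BIR DMSO replicate 1 or A375 dabrafenib replicate 2. CLK1, a kinase of splicing factors, had 118 ± 18.6 CPM in A375 with dabrafenib and 32.7 in A375 with DMSO (log2 change 1.83 ± 0.35, edgeR adjusted p 8.09e-05), and CCNL1, a cyclin of the splicing machinery, was at 1.503 ± 0.26. In A375-BIR 1 of 14 was called, beside 2.46% of all genes. It was the related cyclin CCNL2, at 243 ± 82.3 CPM with dabrafenib and 146 ± 13.5 with DMSO (0.71 ± 0.19, edgeR adjusted p 0.03). That call was lost without A375-BIR dabrafenib replicate 3 (0.44), without any A375-BIR DMSO replicate (0.63, 0.76 and 0.75), without A375 dabrafenib replicate 1 (0.71), in DESeq2 (0.74), in a fit restricted to the groups compared (0.72) and with the share of multiply aligned reads as a term (0.30). The list had 4 calls without A375-BIR dabrafenib replicate 1 and 2 without replicate 2.

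Between the lines with dabrafenib, 5 of the 14 were lower in A375-BIR and 2 were higher (median -0.32), beside 42.7% of all genes, and 4 were called without A375 replicate 2. CLK1 had 33.4 ± 16.8 CPM in A375-BIR and 118 ± 18.6 in A375 (-1.99 ± 0.29), and RBM5, a splicing regulator, 73.4 ± 18.6 and 162 ± 5.57 (-1.18 ± 0.21). Of other long noncoding RNAs, 11 of 24 listed were tested. With dabrafenib, 2 were higher in A375-BIR than in A375, 1 was lower and 8 were not called (median -0.11), beside 42.7% of all genes. CASC15, tied to neuroblastoma and melanoma, had 6.01 ± 5.87 CPM in A375-BIR and 58.9 ± 3.49 in A375 (-3.66 ± 0.45, edgeR adjusted p 2.72e-08). CYTOR was higher in A375-BIR (1.13 ± 0.24), as was JPX, an activator of XIST (0.80 ± 0.26), whose call was lost without A375-BIR replicate 1 (0.67) or A375 replicate 1 (0.67), and the list had 5 calls without A375-BIR replicate 2. NORAD, a cytoplasmic RNA that binds Pumilio proteins, was at -0.11 between the lines with dabrafenib and was not called. In the response of A375 it had 545 ± 41.2 CPM with dabrafenib and 167 with DMSO (1.70 ± 0.27).

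Of snoRNA host RNAs, which carry snoRNAs in their introns, 7 of 16 listed were tested. With dabrafenib, 4 of 7 were higher in A375-BIR than in A375 and 0 were lower (median 0.84), beside 42.7% of all genes, whereas 0 were called without A375-BIR replicate 2 and 1 without A375 replicate 3. All 4 calls were also lost with the share of multiply aligned reads as a term, where SNHG12 was at 0.49, SNHG8 at 0.41, EPB41L4A-AS1 at 0.22 and SNHG7 at 0.40. Of the 13 mitochondrially encoded genes, 12 were lower in A375-BIR with dabrafenib than in A375 with dabrafenib and 0 were higher (median -1.20). Of 82 ribosomal protein genes, 61 were higher and 0 lower (median 0.76).

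Neighbouring genes were listed within 100 kb. Around MALAT1, 9 of 12 were tested, and with dabrafenib 3 were lower in A375-BIR than in A375 and 0 were higher, beside 20.2% of all genes called lower. NEAT1 is 1 of the 3 and was itself selected on its counts in these libraries, so nothing is read from that number. The others were FAUP4, a pseudogene at 8.68 ± 5.71 CPM in A375-BIR and 27.7 ± 5.18 in A375 (-1.94 ± 0.46, edgeR adjusted p 0.00085), and MAP3K11, a kinase upstream of JNK (-1.002 ± 0.33, 0.0133). In the response of A375-BIR 0 of 9 were called, beside 2.46% of all genes. In that of A375 3 were lower and 0 higher, beside 38.6% of all genes called in either direction. Between the lines in DMSO 5 were lower, NEAT1 again among them, and 0 higher, beside 51.7%. An unnamed lincRNA identifier that overlaps MALAT1 on the other strand, ENSG00000270117, had 1 count in all.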

How the data were processed

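Libraries of 3′ tags were made from 250 ng of total RNA with the QuantSeq FWD kit and read from a single end for 100 bases, per the labels' protocols. The authors deposited raw counts of reads per gene, with no normalization, and 5 closing lines for reads given to no gene, used here to describe the libraries. The build is hg38, per the submitters' processing notes. Which aligner, counter, annotation release and strand option were used is not given in the sources used here. Names, types, positions and transcript sequences were taken from GENCODE 29 (GRCh38), which holds 33132 of the 33694 identifiers.

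The design planned 12 libraries, and 10 entered. Genes were kept by filterByExpr (minimum count 10), which left 10236. All groups entered 1 quasi-likelihood fit of edgeR 4.0.16 (R 4.3.3, TMM scaling, robust, 6 residual degrees of freedom). Calls are at an adjusted p under 0.05, by Benjamini-Hochberg over the whole table. The fit gives the lone A375 DMSO library the spread of the other groups. Levels are CPM on TMM-scaled totals, likeness uses log2 CPM with a prior count of 2, and a count of 0 in a library allows up to 1.5 to 15.1 CPM (3 counts). The labels call the replicates biological and say no more, so p-values measure the spread between these libraries.

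The 3 RNAs, the 10 lists and the markers were chosen with earlier results of these data known. Named genes were at most 4 called genes per list and comparison by smallest p, and the 5 genes most like each RNA by either measure. Alternatives were other scalings, filters, tools, libraries, denominators and a replicate block. The fit was tested on simulated counts. The replicate numbers were not taken to pair the libraries.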

Additional observations from a re-analysis of the deposited data

Results flagged for a closer look

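The difference between the 2 responses to dabrafenib is that of A375-BIR minus that of A375. It passed an adjusted p under 0.05 in edgeR for 22.6% of the 10236 genes tested. The 20 genes given here are at most 4 called genes per list by smallest p, so their number is not a result. Each rests on the single A375 DMSO library of another run. On the log2 scale the difference was 1.42 for RBMX, 1.37 for SMARCA4, 1.30 for DAZAP1 and -1.23 for EWSR1 among paraspeckle proteins. For nuclear speckle proteins it was -2.41 for SRSF2, -1.55 for SRSF1, 0.95 for SRSF3 and -1.01 for TRA2A. In the KCNQ1 cluster it was 3.24 for PHLDA2, 1.10 for NAP1L4 and 1.55 for SLC22A18. For repressors tied to KCNQ1OT1 it was -1.86 for EED, -1.61 for RNF2 and 1.14 for DNMT1.

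Among other RNAs the difference was -1.51 for NORAD and -1.10 for EPB41L4A-AS1, a snoRNA host. For intron-retaining genes it was -2.46 for CLK1, -1.59 for CCNL1, -1.20 for OGT and -0.95 for RBM39. Leaving out 1 library ended the call of 9 of the 20 in at least 1 case. Those were SRSF3 (lowest value 0.72, without A375-BIR dabrafenib replicate 1), TRA2A (-0.67, without the same library), EPB41L4A-AS1 (-0.92, without A375 dabrafenib replicate 1), RBM39 (-0.77, without A375-BIR dabrafenib replicate 1), OGT (-1.11, without A375-BIR DMSO replicate 1), SLC22A18 (1.18, without A375-BIR dabrafenib replicate 2), EED (-1.38, without A375 dabrafenib replicate 1), RNF2 (-1.45, without A375 dabrafenib replicate 2) and DNMT1 (1.02, without A375-BIR DMSO replicate 1). With the share of multiply aligned reads as a term 8 of the 20 lost their call, namely SMARCA4 (0.78), SRSF1 (-1.22), SRSF3 (1.007), NAP1L4 (0.52), EED (-1.54), RNF2 (-1.13), DNMT1 (0.02) and EPB41L4A-AS1, whose direction turned (0.17). DESeq2 did not call 9 of the 20, the same 9 that leaving out a library ended. The calls of RBMX, DAZAP1, EWSR1, SRSF2, PHLDA2, NORAD, CLK1 and CCNL1, 8 in all, were lost in no setting tried.

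The files of A375 DMSO replicates 2 and 3, whose labels state human, hold 224221 and 652439 counts on mouse identifiers and entered no comparison.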

How the results depend on the processing

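Genes called numbered 252 for dabrafenib in A375-BIR, 3949 for dabrafenib in A375, 4373 between the lines with dabrafenib, 5297 in DMSO and 2312 in the difference between responses. With a mean count of at least 50 these were 137, 1669, 1763, 1895 and 1134. DESeq2 called 106 for dabrafenib in A375-BIR, 2485 in A375 and 1128 in the difference, and the fit of the 2 groups alone called 132 in the first. Leaving out 1 library gave 106 to 555 for the first, the highest without A375-BIR dabrafenib replicate 2, and 106, 138 and 108 without A375-BIR DMSO replicates 1, 2 and 3. With the share of multiply aligned reads as a term, 2002 were called between the lines in DMSO and 1467 in the difference. That term put MALAT1, NEAT1 and KCNQ1OT1 at -0.040, -0.056 and -0.58 (log2) in the response of A375-BIR. It put them at 1.72, 0.45 and 1.82 in that of A375, at 1.35, -0.70 and 1.57 between the lines in DMSO, and at -1.76, -0.51 and -2.41 in the difference; there NEAT1 lost its call in DMSO, MALAT1 gained one in A375, in DMSO and in the difference, and KCNQ1OT1 in A375-BIR and in DMSO. Library totals in place of TMM moved the median of all genes to 0.26, 0.16, 0.40 and -0.24 in the last 4 comparisons. They gave 0.13, -0.94 and 0.41 for the 3 RNAs in DMSO and -0.32 for NEAT1 in the difference. Same-numbered replicates had correlations of -0.12 to 0.11 and differently numbered ones of -0.11 to 0.14. With 3 libraries per group these values cannot tell whether the numbers pair the libraries. With a replicate block, MALAT1 was at 0.60 in the response of A375, and the 3 RNAs at -0.68, -1.505 and -0.22 between the lines in DMSO. By differences of mean log2 shares, NEAT1 was at -0.10 in the response of A375-BIR as a percent of all lines. In that of A375 it was at 0.19 by all lines and 0.046 by reads with 1 alignment, a denominator chosen after seeing the data, and KCNQ1OT1 was at 1.17 and 1.03. Between the lines in DMSO, MALAT1 was at -0.088 and KCNQ1OT1 at 0.19 by reads with 1 alignment, and NEAT1 at -0.82 by all lines, -1.10 without mitochondrially encoded genes and -1.15 by reads with 1 alignment. Other causes were not tested. No comparison with A375 DMSO can be repeated without its library.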
